A study of Mus musculus with 16 samples.

Results

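The E2F and retinoblastoma family comprises transcription factors and the pocket proteins that hold them in check, and together they govern entry into the DNA synthesis phase of the cell cycle. The 10 genes described here are the E2F genes E2f1, E2f2, E2f3, E2f4, E2f6, E2f7 and E2f8 and the pocket protein genes Rb1, Rbl1 and Rbl2. They were taken by name from a table of 23410 gene symbols and all 10 passed the filter on low counts that left 10080 genes to test. With beta-estradiol, 3 patterns were seen among them. Rb1 and Rbl2 rose up to the highest dose, E2f3 and E2f4 fell at high doses, and Rbl1, E2f2, E2f7 and E2f8 were higher at 100 nM than at both ends of the dose range.

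Most E2F proteins bind DNA as a dimer with a DP protein. E2F1, E2F2 and E2F3 are known as activators of genes for DNA replication, E2F4 acts mainly with the pocket proteins p107 and p130 in repressor complexes, E2F6 represses without pocket proteins as part of a polycomb-type complex, and the atypical E2F7 and E2F8 repress without a DP partner. The pocket proteins pRB (from Rb1), p107 (from Rbl1) and p130 (from Rbl2) bind E2Fs until kinases paired with D and E cyclins phosphorylate them. In red cell precursors the last divisions are coupled to maturation, and loss of Rb1, E2f2 or E2f4 in mice is known to impair red cell formation.

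The cells were G1E-ER4, a GATA1-null mouse erythroid line with a transgene for a GATA1 protein joined to the hormone-binding domain of an estrogen receptor. On binding beta-estradiol the fusion enters the nucleus, and the study asked how the transcriptome responds to graded GATA1 activity. Cells grown in IMDM with serum, SCF (stem cell factor) and erythropoietin received 0 nM (labelled control), 12.5, 25, 50, 75, 100, 150 or 200 nM beta-estradiol, and total RNA was read by Smart-seq2, a full-length method that keeps no strand. There were 2 libraries a dose and 16 in all, all from 1 line. The sources used here give neither the exposure time nor whether replicates were separate cultures, so p-values measure the spread between these samples, which may be technical. No cells without the fusion were among the samples, so effects of beta-estradiol itself and of the fusion cannot be told apart.

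Library totals ran from 9393156 to 15802510 counts. The share of counts on the ribosomal RNA gene Rn45s was 9.61% and 9.53% without beta-estradiol and 14.6% and 15.3% at 200 nM. Levels are given as CPM, counts scaled to sequencing depth, here by the trimmed mean of M-values (TMM), with SD over 2 libraries. Scaling by library totals alone lowered the median log2 fold change of all genes by up to 0.38 (at 200 nM, -0.36 against 0.02 with TMM), and it changed the share of genes called higher and lower at 200 nM from 40.5% and 39.5% to 28% and 53.5%. The erythroid label held: the summed level of 8 erythroid markers was 871 CPM in both libraries at 0 nM and 24300 to 24680 CPM at 200 nM, where 8 of 8 were called higher. Summed megakaryocyte markers (7 genes, Gp1bb at 0 in all libraries) went from between 10.02 and 11.3 CPM at 0 nM to 432 to 445 CPM at 200 nM, and 4 of the 4 tested were called higher. Summed myeloid markers (7 genes) went from 0.552 to 1.20 CPM to 3.22 to 3.41 CPM, with Mpo and Lyz2 at 0 throughout, and the lymphocyte markers Cd3e and Cd79b were at 0 in all libraries. The part of this shift in cell state in the results below was not tested, and in bulk samples fewer cells of a type and less RNA per cell cannot be told apart.

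Several genes of the family are themselves known as E2F targets, so the promoters are shown before the levels. RefSeq windows on GRCm38.p6, from 250 bases before to 50 bases after a start site, were found for 8 of the 10 genes (10 windows). E2f4 and Rb1 had no window, so no letters were searched for these genes. The E2f1 window (chr2:154569377-154569676) and the second windows of E2f2 and E2f3 lay inside the annotated gene spans. For E2f1, letters near other starts were thus not searched. The first E2f2 window ended at 136172323, before the annotated gene span, which begins at 136172394. E2F letters were searched on both strands as a site of 8 bases (TTTCCCGC, TTTGGCGC, TTTCGCGC or TTTGCCGC) and as a core of 7 bases (TTCCCGC, the stretch shared with the first site, or else TTGGCGC, shared with the second), so a core can lie inside a site. The site was found in E2f2, E2f3, E2f7 and Rbl1, which is 4 of the 10 windows beside 2.27% of 32851 windows of the same length, and the core in E2f2, E2f3, E2f7 and E2f8, also 4 of the 10, beside 6.81%. The windows shown are those of the 4 genes that were higher at 100 nM than at both 0 and 200 nM and, for contrast, E2f3, which fell. Capitals mark the E2F letters on either strand. They come from chr4:136172024-136172323 (plus strand), chr10:110745189-110745488 (plus strand), chr7:48881547-48881846 (minus strand), chr2:157204485-157204784 (minus strand) and chr13:29986014-29986313 (minus strand).
E2f2: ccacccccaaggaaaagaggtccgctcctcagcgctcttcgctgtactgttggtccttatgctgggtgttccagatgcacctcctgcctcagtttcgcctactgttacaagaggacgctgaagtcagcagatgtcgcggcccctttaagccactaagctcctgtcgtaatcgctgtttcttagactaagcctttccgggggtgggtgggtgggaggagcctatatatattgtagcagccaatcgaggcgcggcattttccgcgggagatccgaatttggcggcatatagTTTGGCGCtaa
E2f7: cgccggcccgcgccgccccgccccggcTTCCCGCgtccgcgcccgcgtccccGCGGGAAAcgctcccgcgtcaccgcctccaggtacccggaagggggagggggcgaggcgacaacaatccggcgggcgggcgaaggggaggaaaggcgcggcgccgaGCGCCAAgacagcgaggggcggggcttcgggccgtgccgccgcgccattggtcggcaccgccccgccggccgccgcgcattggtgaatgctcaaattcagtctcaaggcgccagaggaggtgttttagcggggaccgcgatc
E2f8: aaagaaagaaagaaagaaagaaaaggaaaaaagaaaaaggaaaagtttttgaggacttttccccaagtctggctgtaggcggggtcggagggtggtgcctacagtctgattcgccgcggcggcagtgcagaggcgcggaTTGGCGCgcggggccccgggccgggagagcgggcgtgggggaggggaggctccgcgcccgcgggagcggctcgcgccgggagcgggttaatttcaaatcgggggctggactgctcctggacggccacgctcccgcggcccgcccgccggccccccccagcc
Rbl1: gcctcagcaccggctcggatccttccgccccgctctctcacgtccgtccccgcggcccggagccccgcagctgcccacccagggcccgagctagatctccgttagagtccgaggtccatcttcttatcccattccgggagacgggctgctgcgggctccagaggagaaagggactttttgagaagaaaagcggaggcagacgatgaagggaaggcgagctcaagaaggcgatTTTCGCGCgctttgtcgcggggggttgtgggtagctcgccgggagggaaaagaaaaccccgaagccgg
E2f3: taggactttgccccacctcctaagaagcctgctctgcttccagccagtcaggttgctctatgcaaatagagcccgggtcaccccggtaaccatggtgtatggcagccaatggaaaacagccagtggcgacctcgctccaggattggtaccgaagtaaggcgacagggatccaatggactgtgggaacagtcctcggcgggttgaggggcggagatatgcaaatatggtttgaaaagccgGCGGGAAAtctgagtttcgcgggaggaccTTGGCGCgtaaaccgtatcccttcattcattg

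In Rbl1 the site lay 18 bases before the RefSeq start, in E2f3 11 bases before and in E2f7 198 bases before. In E2f2 it lay 39 bases after the RefSeq start, but before the annotated gene span. E2f8 had the core alone, 111 bases before the start. The letters TTTGAA are the cell cycle homology region bound by the MuvB complex in promoters of mitotic genes. They were found in E2f2, E2f3, E2f8 and Rbl2, 4 of the 10 windows beside 17.9% of all windows. In E2f2 they lay in its second window, which is not shown. GATA letters, meaning GATA with A or T before it and A or G after it, on either strand, were in 0 of the 10 windows, beside 29.8% of all windows. These matches describe the letters in the windows. They are no evidence of binding, and E2f3 shows that the same letters were present in a gene that fell.

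The 3 pocket protein genes ended higher at 200 nM than at 0 nM with TMM, but by different paths, and Rbl1 not with library totals alone. Rb1 (chr14:73183673-73325822, minus strand), the gene of pRB, stood at 45.4 and 42.8 (0 nM), 41.8 and 36.04 (12.5 nM), 38.4 and 37.6 (25 nM), 50.2 and 57.9 (50 nM), 109 and 108 (75 nM), 131 and 141 (100 nM), 204 and 199.9 (150 nM) and 235 and 284 (200 nM), in CPM. Both libraries at every dose from 50 nM up were above both libraries at 0 nM, and the level at 200 nM was 5.90-fold that at 0 nM (2.56 ± 0.09 on the log2 scale with its standard error, edgeR quasi-likelihood test with Benjamini-Hochberg adjustment, adjusted p = 4.74e-13). Rb1 rose at each step from 25 nM on, with the step from 50 to 75 nM at 1.01 ± 0.09 (edgeR, adjusted p = 7.47e-07). At 50 nM against 0 nM the difference of 0.29 ± 0.10 had adjusted p = 0.0383 in edgeR, and this call was lost without either 0 nM library (0.0748 and 0.184), without replicate 2 at 50 nM (0.26) and with library totals alone (0.114). The step from 75 to 100 nM (0.33 ± 0.09, adjusted p = 0.00991) was lost without either 75 nM library (0.0642 and 0.0814) or without replicate 2 at 100 nM (0.0938).

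Rbl2 (chr8:91070057-91123844, plus strand), the gene of p130, the pocket protein that predominates in resting cells, was first called at 100 nM. Its level was 24.3 and 26.4 (0 nM), 24.5 and 25.3 (12.5 nM), 26.6 and 25.9 (25 nM), 21.4 and 24.9 (50 nM), 27.4 and 30.5 (75 nM), 38.7 and 38.8 (100 nM), 52.7 and 50.7 (150 nM) and 62.6 and 59.6 (200 nM), in CPM. The libraries up to 50 nM lay between 21.4 and 26.6 CPM, those from 100 nM on lay above all of them, and the highest pair was at 200 nM. The difference from 0 nM was 0.61 ± 0.09 at 100 nM (edgeR, adjusted p = 2.39e-08) and 1.27 ± 0.08 at 200 nM (adjusted p = 9.26e-19), a 2.41-fold difference. The last step, from 150 to 200 nM (0.24 ± 0.08, adjusted p = 0.0154 in edgeR), lost its call in DESeq2 (0.0534), with library totals alone (0.208), without either 150 nM library (0.0511 and 0.0873) and without replicate 1 at 200 nM (0.113).

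Rbl1 (chr2:157145893-157204534, minus strand), the gene of p107, which cycling cells express and which is itself an E2F target, rose and came down again. It stood at 63.9 and 57.8 (0 nM), 59.9 and 60.1 (12.5 nM), 71.7 and 56.97 (25 nM), 76.2 and 96.2 (50 nM), 129 and 123 (75 nM), 129 and 138 (100 nM), 122 and 112 (150 nM) and 75.6 and 84.2 (200 nM), in CPM. The 6 libraries from 75 to 150 nM were above the other 10. Rbl1 was higher at 100 nM than at 0 nM by 1.13 ± 0.13 (edgeR, adjusted p = 2.94e-05) and higher than at 200 nM by 0.74 ± 0.13 (adjusted p = 0.000708). Its difference at 200 nM from 0 nM, 0.39 ± 0.14 (edgeR, adjusted p = 0.025), was not called without replicate 2 at 0 nM (0.125), without replicate 2 at 200 nM (0.151) or with library totals alone, where it was 0.01.

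**Figure D1:**
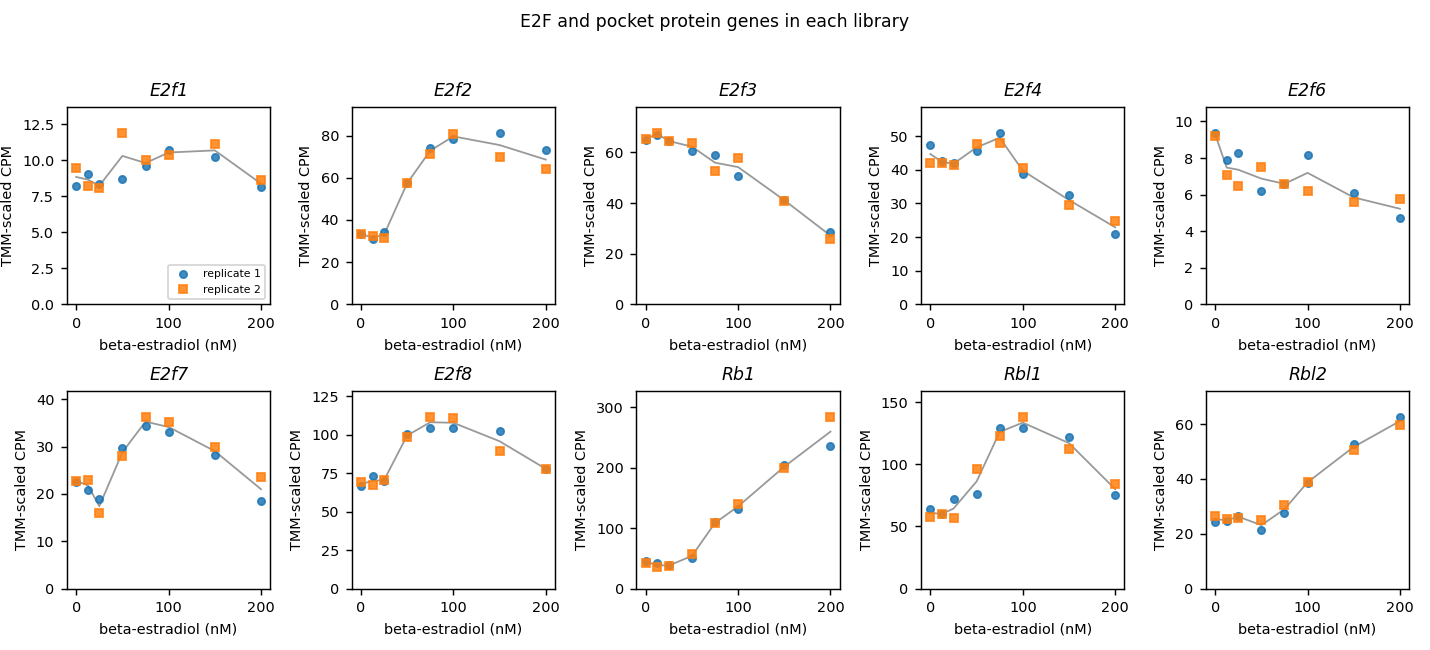
Level of each family gene in every library, in TMM-scaled CPM on a linear axis from 0, against beta-estradiol in nM; circles are replicate 1, squares replicate 2, and the line joins the means of 2. Rb1 and Rbl2 climb to 200 nM, E2f3 and E2f4 end at their lowest levels, and Rbl1, E2f2, E2f7 and E2f8 are above both ends at 100 nM.

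By whole gene span, Rb1 overlaps Lpar6 and Rcbtb2 on the other strand, and Rbl2 overlaps Aktip. Whether exons of such partners overlap was not examined, and without strand any reads from shared exon cannot be told apart. These 3 partners went the other way: Lpar6 was at 6.05 ± 0.89 CPM at 0 nM and 0.785 ± 0.33 CPM at 200 nM, Rcbtb2 at 55.9 ± 0.97 and 21.9 ± 0.61 CPM, and Aktip at 10.7 ± 0.40 and 3.84 ± 1.5 CPM. The annotation also lays noncoding genes or pseudogenes over E2f3 (Gm11365), E2f7 (1700020G17Rik, at 0 CPM in all libraries), E2f8 (Gm2788), Rbl1 (Gm14277), Rb1 (Gm17233 and Mir687) and Rbl2 (Gm45464), and apart from that of E2f7 they were not analysed here.

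Among pocket protein transcripts the share of Rb1 was above its 0 nM value from 75 nM on, and that of Rbl1 was below its 0 nM value from 100 nM on. Shares were taken within each library from CPM per kilobase of exon, so they do not depend on how libraries are scaled. Rb1 made up 35.2% and 35.1% of the summed pocket protein level at 0 nM, between 29.2% and 34.9% in the 6 libraries from 12.5 to 50 nM, 41.9% and 42.2% with 75 nM, 45.1% and 45.4% with 100 nM, and 65.2% and 68.3% with 200 nM. Rbl1 held 49.8% and 47.6% without beta-estradiol, 53.2% and 55.4% with 50 nM, and 21.0% and 20.3% with 200 nM. Rb1 and Rbl1 thus stood near each other at 100 nM, where Rbl1 held 44.4% and 44.7%, and the 150 and 200 nM libraries had Rb1 first. Rbl2 had the smallest share at every dose, from 8.36% in a 75 nM library to 17.9% in a 25 nM library.

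**Figure D2:**
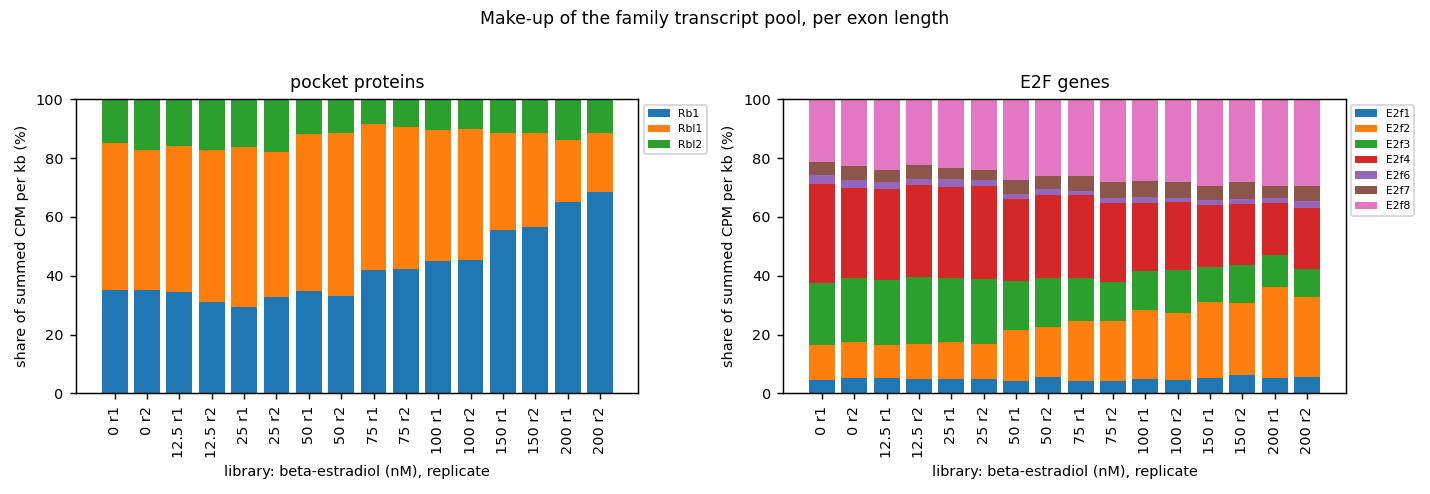
Share of each gene in the summed CPM per kilobase of exon of the pocket protein genes (left) and of the E2F genes (right), in percent, 1 bar per library in order of dose (nM) and replicate (r1, r2). Rb1 goes from 35.2% and 35.1% at 0 nM through 29.2% to 34.9% from 12.5 to 50 nM to 65.2% and 68.3% of the pocket protein pool at 200 nM, and E2f2 from 12.0% and 12.3% to 30.8% and 27.0% of the E2F pool.

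The activator genes did 3 different things. E2f2 (chr4:136172394-136196057, plus strand), known for its part in the last divisions of red cell precursors, was at 33.3 and 33.5 (0 nM), 31.0 and 32.3 (12.5 nM), 34.3 and 31.7 (25 nM), 57.5 and 57.4 (50 nM), 74.2 and 71.4 (75 nM), 78.3 and 80.9 (100 nM), 81.3 and 69.7 (150 nM) and 73.1 and 64.0 (200 nM), in CPM. The 6 libraries up to 25 nM were below the other 10, and the level at 100 nM was 2.38-fold that at 0 nM (1.25 ± 0.07, edgeR, adjusted p = 3.58e-20). At 200 nM E2f2 was still higher than at 0 nM by 1.04 ± 0.08 (adjusted p = 5.01e-17), and the 100 nM level exceeded the 200 nM level by 0.22 ± 0.07 (adjusted p = 0.00642 in edgeR). That last difference was not called when replicate 2 at 200 nM, the lower of the pair, was left out.

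E2f3 (chr13:29906575-29986063, minus strand), which shares the activator role with E2f1 in many cell types, went down. Its libraries read 65.0 and 65.4 (0 nM), 66.9 and 67.7 (12.5 nM), 64.5 and 64.4 (25 nM), 60.7 and 63.8 (50 nM), 59.1 and 52.7 (75 nM), 50.6 and 57.8 (100 nM), 41.4 and 40.9 (150 nM) and 28.6 and 25.8 (200 nM), in CPM. Each library from 50 nM on was below both 0 nM libraries, and the level at 200 nM was 0.416 of that at 0 nM (-1.27 ± 0.08, edgeR, adjusted p = 1.22e-19). The fall was called from 75 nM on, where it was -0.22 ± 0.07 (adjusted p = 0.00529), a call lost without replicate 2 at 75 nM (0.129), and that at 100 nM (-0.27 ± 0.07, adjusted p = 0.000672) was lost without replicate 1 at 100 nM (0.0624). From 100 to 150 nM it fell by 0.40 ± 0.08 (edgeR, adjusted p = 3.36e-05), and from 150 to 200 nM by 0.60 ± 0.09 (adjusted p = 1.79e-07).

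E2f1 (chr2:154559407-154569892, minus strand), the best known activator, had low counts, 88 to 191 per library, and its levels ran from 8.09 CPM in a 25 nM library to 11.9 CPM in a 50 nM library. It was the 1 member of 10 not called by the F test over all doses (edgeR, adjusted p = 0.107, where 86.3% of the genes tested were called). Its difference at 200 nM from 0 nM was -0.07 ± 0.16 (adjusted p = 0.68), with the sign turning to 0.01 without replicate 2 at 0 nM and the value going to -0.46 (adjusted p = 0.011) with library totals alone.

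The genes of the classical repressors fell at high dose. E2f4 (chr8:105297663-105305370, plus strand), the partner of p107 and p130, was at 47.2 and 42.1 (0 nM), 42.5 and 42.1 (12.5 nM), 42.1 and 41.5 (25 nM), 45.6 and 47.6 (50 nM), 51.0 and 48.0 (75 nM), 38.8 and 40.6 (100 nM), 32.6 and 29.4 (150 nM) and 21.0 and 24.8 (200 nM), in CPM. The 4 libraries at 150 and 200 nM were below the other 12. Both 75 nM libraries were above all the others. The difference at 75 nM from 0 nM was 0.15 ± 0.08 (edgeR, adjusted p = 0.0952), and 0.23 without replicate 1 at 0 nM. E2f4 fell by 0.32 ± 0.08 from 75 to 100 nM (edgeR, adjusted p = 0.00152), by 0.35 ± 0.09 from 100 to 150 nM (adjusted p = 0.00105) and by 0.44 ± 0.10 from 150 to 200 nM (adjusted p = 0.000231). Against 0 nM the difference was -0.96 ± 0.09 at 200 nM (adjusted p = 1.03e-13 in edgeR). At 100 nM it was -0.17 ± 0.08 (adjusted p = 0.0531), which was called with library totals alone (-0.36), with TMM without Rn45s and globin genes (-0.18, adjusted p = 0.044) and without replicate 2 at 0 nM (-0.25, adjusted p = 0.0173).

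E2f6 (chr12:16810963-16839742, plus strand), the pocket-independent repressor, had 48 to 153 counts per library. Its libraries read 9.38 and 9.20 CPM at 0 nM and 4.70 and 5.76 CPM at 200 nM, and the other 12 lay between 5.62 and 8.25 CPM, so both 0 nM libraries were the highest of the 16. The difference at 200 nM was -0.82 ± 0.19 (edgeR, adjusted p = 0.000101). At 50 nM (-0.43 ± 0.17, adjusted p = 0.0394) it lost its call in DESeq2 (0.147) and without either 0 nM library or replicate 1 at 50 nM (0.111 to 0.276), and at 75 nM (-0.49 ± 0.17, adjusted p = 0.0125) without replicate 1 at 0 nM (0.0523) or at 75 nM (0.056). The 7 listed germline genes that E2F6 complexes are known to hold silent (such as Tuba3a, Smc1b and Ddx4) had at most 2 counts in any library and were not tested.

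The atypical E2F genes rose together at intermediate doses and came back. E2f7 (chr10:110745439-110787384, plus strand) stood at 22.6 and 22.8 (0 nM), 20.8 and 22.8 (12.5 nM), 18.9 and 15.9 (25 nM), 29.6 and 28.0 (50 nM), 34.3 and 36.3 (75 nM), 33.0 and 35.3 (100 nM), 28.2 and 29.9 (150 nM) and 18.4 and 23.6 (200 nM), in CPM. Libraries at 50 to 150 nM were all above those at 0, 12.5, 25 and 200 nM. The level at 75 nM exceeded that at 0 nM by 0.64 ± 0.10 (edgeR, adjusted p = 2.78e-07) and that at 200 nM by 0.74 ± 0.10 (adjusted p = 1.72e-08). At 200 nM the difference from 0 nM was -0.11 ± 0.11 (adjusted p = 0.351 in edgeR), which became 0.05 without replicate 1 at 200 nM, -0.31 (adjusted p = 0.0339) without replicate 2, and -0.49 with library totals alone. E2f7 was also the 1 member called at 25 nM, at -0.38 ± 0.10 (adjusted p = 0.0255), a call lost in DESeq2 (0.0775), without either 0 nM library (0.124 and 0.171) and without replicate 2 at 25 nM (0.405).

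E2f8 (chr7:48866429-48881596, minus strand) was at 66.5 and 69.4 (0 nM), 73.0 and 67.1 (12.5 nM), 70.1 and 70.9 (25 nM), 100.4 and 98.7 (50 nM), 105 and 112 (75 nM), 104 and 111 (100 nM), 102 and 89.2 (150 nM) and 78.0 and 77.8 (200 nM), in CPM. The 8 libraries from 50 to 150 nM were above the other 8. The level at 100 nM exceeded that at 0 nM by 0.67 ± 0.06 (edgeR, adjusted p = 9.03e-14) and that at 200 nM by 0.47 ± 0.06 (adjusted p = 4.36e-09). At 200 nM E2f8 was higher than at 0 nM by 0.20 ± 0.06 with TMM (adjusted p = 0.00427 in edgeR), but lower with library totals alone (-0.18, adjusted p = 0.00856), and not called without replicate 1 at 0 nM (0.0769).

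**Figure D3:**
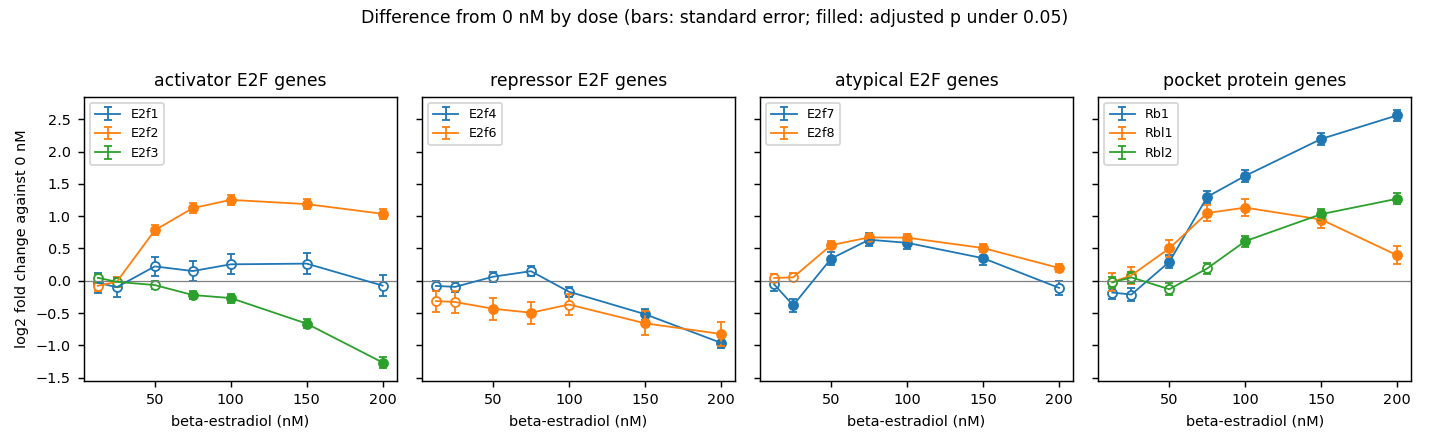
Log2 fold change of each family gene against 0 nM, by dose in nM, in 4 panels by role; bars are standard errors, and filled points have an adjusted p under 0.05 in edgeR. Rb1 reaches 2.56 at 200 nM, E2f3 reaches -1.27, and E2f7 and E2f8 are highest at 75 and 100 nM.

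Counts of members called are given beside the share of all genes tested that met the same rule. At 100 nM, 4 of the 10 genes (E2f2, E2f7, E2f8 and Rbl1) were higher than at both 0 and 200 nM, where 3.38% of the 10080 genes tested were. These 4 were called in each of the other settings run for this count except without replicate 2 at 200 nM, which left E2f7, E2f8 and Rbl1. The count was 2 of 10 at 50 nM (2.77% of all genes), 3 of 10 at 75 nM (3.73%) and 3 of 10 at 150 nM (1.81%), and 0 at 12.5 nM (0.0397%) and 25 nM (0.685%). Those at 150 nM were E2f7, E2f8 and Rbl1 with TMM, but E2f2, E2f8 and Rbl1 with library totals alone. The difference of E2f7 at 150 nM from 0 nM was 0.35 with TMM and 0.08 with library totals alone. E2f7 at 25 nM was the 1 member called lower than both ends (0.397% of all genes). Against 200 nM it differed by -0.27 ± 0.11 (edgeR, adjusted p = 0.0265), and the libraries overlapped (18.9 and 15.9 CPM at 25 nM, 18.4 and 23.6 CPM at 200 nM). Its call against 0 nM had the limits given above.

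Against 0 nM, no member was called at 12.5 nM, where 0.506% of all genes tested were. At 25 nM the 1 member called was lower (4.02% of all genes in either direction, 1.02% lower). The 50 nM libraries had 5 members higher (18.8% of all genes) and 1 lower (14.7%). Without replicate 2 at 0 nM this became 3 higher (E2f2, E2f7 and E2f8) and 0 lower. For 75 nM the count was 5 higher (29%) and 2 lower (26.9%), and for 100 nM 6 higher (34.1%) and 1 lower (32.5%). For 150 nM it was 6 higher (37.7%) and 3 lower (36.6%), and for 200 nM 5 higher (40.5%) and 3 lower (39.5%). In either direction the members called were 6 of 10 at 50 nM (33.5% of all genes), then 7 (56%), 7 (66.6%), 9 (74.3%) and 8 (80%), so from 75 nM on the share was near that of all genes. The median log2 fold change of the 10 was 0.60 for 100 nM and 0.06 for 200 nM, beside 0.01 and 0.02 over all genes. With library totals alone the count at 200 nM was 3 higher (E2f2, Rb1 and Rbl2) and 6 lower. This is near the 28% and 53.5% of all genes under that scaling.

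Between neighbouring doses, no member was called from 12.5 to 25 nM (1.09% of all genes were). From 25 to 50 nM 5 members rose, E2f2, E2f7, E2f8, Rb1 and Rbl1 (14.1% of all genes), and none fell (12.1%). Rbl1 at that step (0.42 ± 0.13, edgeR, adjusted p = 0.0447) lost its call with library totals alone (0.0648) and without replicate 2 at 25 nM (0.157) or at 50 nM (0.145). From 50 to 75 nM 5 members rose (16.6%; 3 without replicate 2 at 75 nM) and none fell (15.8%), and from 75 to 100 nM 2 rose (14.7%) and 1 fell (12.8%). From 100 to 150 nM 2 rose (20.6%) and 3 fell (20.2%), which is near the shares of all genes. Of these 3 (E2f3, E2f4 and E2f8), E2f8 (-0.16 ± 0.06, edgeR, adjusted p = 0.0282) lost its call in DESeq2 (0.0805) and without replicate 2 at 100 nM (0.237) or at 150 nM (0.396). From 150 to 200 nM 2 rose (19.4%) and 5 fell (19.9%), E2f3, E2f4, E2f7, E2f8 and Rbl1. At that step Rbl1 was not called without replicate 1 at 150 nM (0.0719) or at 200 nM (0.0608), and E2f7 not without replicate 1 at 200 nM (0.0675). Rb1 and Rbl2 were the 2 that rose in each of the last 3 steps, with the limits given above.

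Per kilobase of exon, which allows levels of different genes to be set side by side, the order of the family changed. At 0 nM E2f4 led with 18.2 CPM per kilobase, followed by E2f8 (12.5), E2f3 (12.0), Rbl1 (10.2), Rb1 (7.33), E2f2 (6.84), Rbl2 (3.35), E2f1 (2.80), E2f7 (2.52) and E2f6 (1.64). E2f8 and E2f3, and likewise E2f1 and E2f7, differed by less than 2 SD of the more variable gene. So did Rb1 and E2f2, and Rbl2 and E2f1. At 200 nM Rb1 led with 43.2 CPM per kilobase, and E2f8 (14.3), E2f2 (14.1) and Rbl1 (13.3) followed, apart by no more than the SD of the more variable gene. E2f4 (9.34) and Rbl2 (8.08) came next, then E2f3 (5.002), E2f1 (2.65), E2f7 (2.33) and E2f6 (0.923). At this dose E2f4 and Rbl2, and likewise E2f1 and E2f7, differed by less than 2 SD of the more variable gene. Among the E2F genes the share of E2f2 went from 12.0% and 12.3% at 0 nM to 30.8% and 27.0% at 200 nM, and that of E2f8 from 21.4% and 22.8% to 29.5% and 29.4%. The share of E2f4 went from 33.8% and 30.7% to 17.6% and 20.8%, and that of E2f3 from 21.0% and 21.5% to 10.8% and 9.75%.

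The DP partners of the E2Fs went opposite ways. Tfdp1, the gene of DP1, was at 135 and 126 CPM at 0 nM and 54.7 and 47.6 CPM at 200 nM, and Tfdp2, the gene of DP2, was at 62.8 and 60.2 CPM and at 157 and 159 CPM. The groups did not overlap in either gene. Tfdp1 fell by 1.36 ± 0.06 and Tfdp2 rose by 1.36 ± 0.06 (edgeR, adjusted p = 4.17e-25 and 2.69e-26). At 100 nM Tfdp1 was at 104 and 110.2 CPM, below both its 0 nM libraries, and Tfdp2 was at 94.97 and 99.9 CPM, above both of its own.

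Genes of the cyclins and kinases that act on pocket proteins went both ways, more often down, and the tested genes of kinase inhibitors rose. Of 10 listed cyclin and kinase genes tested, 2 were higher and 7 lower at 200 nM, beside 40.5% and 39.5% of all genes. Their median was -0.47, beside 0.02 for all genes. Ccnd3, the gene of cyclin D3, a cyclin known for its part in red cell divisions, went from 317 ± 1.5 to 1929 ± 50 CPM (2.61 ± 0.03, edgeR, adjusted p = 6.64e-49). Ccnd2, the gene of cyclin D2, went from 541 ± 3.5 to 190.4 ± 3.8 CPM (-1.51 ± 0.04, adjusted p = 1.24e-35), and Cdk4, the gene of the kinase of both, from 742 ± 10 to 231 ± 4.3 CPM (-1.68 ± 0.03, adjusted p = 5.14e-40). Ccna2, the gene of cyclin A2, was the other one higher (0.69 ± 0.03). Of 7 listed kinase inhibitor genes, 4 passed the low count filter, and these 4 were higher at each dose from 50 to 200 nM. Of all genes, 18.8% were higher at 50 nM, 29% at 75 nM, 34.1% at 100 nM, 37.7% at 150 nM and 40.5% at 200 nM. Cdkn1a, the gene of p21, went from 112 ± 2.1 to 586 ± 3.7 CPM (2.38 ± 0.04, edgeR, adjusted p = 1.06e-42), and Cdkn2c, the gene of p18, from 7.40 ± 0.058 to 64.3 ± 0.63 CPM (3.12 ± 0.11, adjusted p = 3.03e-29). Cdkn1b, the gene of p27, differed by 2.96 ± 0.16 and Cdkn2d, the gene of p19, by 2.03 ± 0.09.

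**Figure D4:**
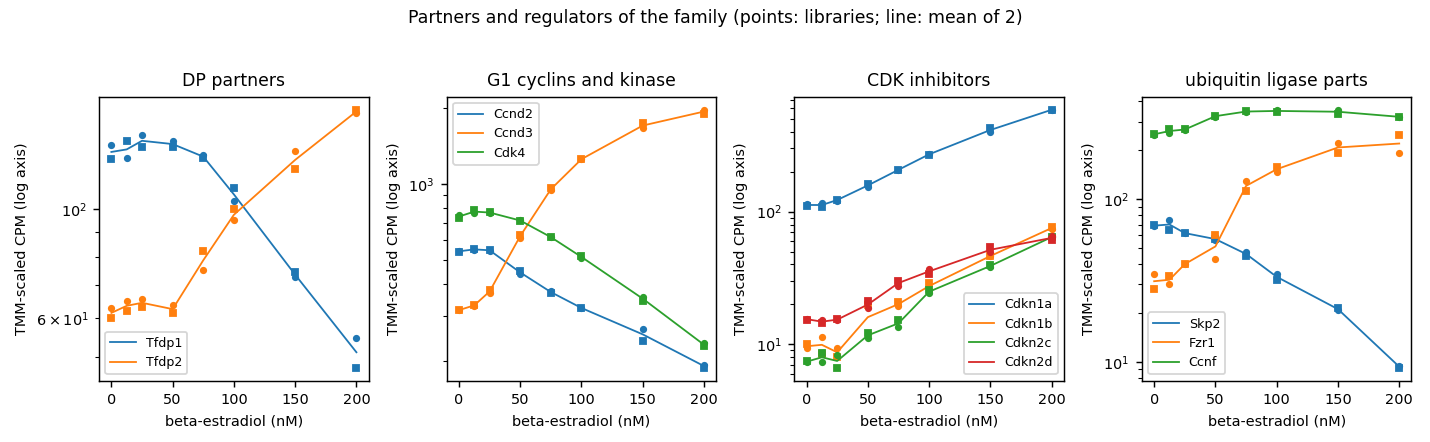
TMM-scaled CPM on log axes against beta-estradiol in nM for DP partner genes, G1 cyclins and Cdk4, kinase inhibitor genes and ubiquitin ligase parts; points are libraries (circle replicate 1, square replicate 2) and lines join means of 2. Tfdp1 falls and Tfdp2 climbs, Ccnd3 and the 4 inhibitor genes climb, and Cdk4, Ccnd2 and Skp2 fall.

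Among the proteins that work with the family at promoters, changes went both ways. The MuvB core forms the DREAM repressor with p130 or p107 and E2F4, and later in the cell cycle it works with MYBL2 and FOXM1. Of these 7 genes 4 were higher and 1 lower at 200 nM (median 0.34), beside 40.5% and 39.5% of all genes. Lin37 (0.96 ± 0.09), Lin54 (0.98 ± 0.12) and Lin52 (0.53 ± 0.11) rose and Rbbp4 (-0.30 ± 0.04) fell. With library totals alone the count was 2 higher and 3 lower, beside 28% and 53.5% of all genes under that scaling. Of 9 co-repressor genes of pocket proteins, 5 were higher and 3 lower with TMM (median 0.26), near the 40.5% and 39.5% of all genes. Sin3b, a scaffold of histone deacetylase complexes, rose from 81.9 ± 4.3 to 252 ± 4.4 CPM (1.62 ± 0.05, edgeR, adjusted p = 4.29e-31), while its relative Sin3a (-0.99 ± 0.07), the deacetylase gene Hdac1 (-1.20 ± 0.07) and the histone methyltransferase gene Suv39h1 (-0.79 ± 0.04) fell. With library totals alone 2 of these 9 were higher and 4 lower, beside 28% and 53.5% of all genes under that scaling.

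In the E2F6 complex 1 of 8 genes was higher and 4 were lower at 200 nM (median -0.21), beside 40.5% and 39.5% of all genes. L3mbtl2, a chromatin reader of that complex, went from 125 ± 1.8 to 44.0 ± 0.42 CPM (-1.51 ± 0.06, edgeR, adjusted p = 2.09e-27) and Cbx3 fell by 1.27 ± 0.08. Pcgf6 was at 16.8 and 13.8 CPM at 0 nM, 26.2 and 23.1 CPM at 75 nM and 8.20 and 10.8 CPM at 200 nM. Its 75 nM libraries were above both ends, and the difference at 200 nM from 0 nM was -0.68 ± 0.16 (edgeR, adjusted p = 0.000216). Ring1 was called higher (1.58 ± 0.29) with 200 nM libraries at 4.42 and 10.2 CPM.

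Of 6 genes for ubiquitin ligase parts that remove E2F or pocket proteins, 4 were higher and 1 lower at 200 nM (median 0.24), beside the same 40.5% and 39.5%. Skp2, which marks p130 and p27 for degradation, went from 68.9 ± 0.26 to 9.36 ± 0.18 CPM (-2.88 ± 0.10, edgeR, adjusted p = 2.09e-30). Fzr1, the gene of CDH1, an activator of the anaphase-promoting complex, went from 31.4 ± 4.8 to 220.3 ± 40 CPM (2.81 ± 0.19, adjusted p = 7e-07), and Mdm2 rose by 1.83 ± 0.05. Ccnf, the gene of cyclin F, was called higher with 0.36 ± 0.04, which is less than the shift of 0.38 that library totals alone bring. With library totals alone the count was 2 higher and 3 lower, beside 28% and 53.5% of all genes under that scaling.

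The known target genes of the family differed by cell cycle phase in their counts. Of 27 G1/S genes, which E2Fs activate for DNA replication, 11 were higher and none lower at 50 nM (18.8% and 14.7% of all genes), and 12 and none at 75 nM (29% and 26.9%). The count was 9 higher and 6 lower with 100 nM (34.1% and 32.5% of all genes), 3 against 22 with 150 nM (37.7% and 36.6%) and 2 against 24 with 200 nM (40.5% and 39.5%). The median at the last dose was -0.72, beside 0.02 for all genes. Mcm6, a subunit of the replicative helicase, was at 1666 and 1667 CPM at 0 nM, 1671 and 1698 CPM at 100 nM, and 866 and 850.2 CPM at 200 nM (-0.96 ± 0.03, edgeR, adjusted p = 7.61e-33). Uhrf1, which maintains DNA methylation, went from 437 ± 15 to 166 ± 1.4 CPM (-1.40 ± 0.04), and Mcm4 and Mcm2 fell by 1.08 ± 0.03 and 0.93 ± 0.03. The 2 higher at 200 nM were Cdc6 (0.78 ± 0.04) and Rrm1 (0.13 ± 0.03), named after their values were seen, and Rrm1 is within the shift of 0.38 from library totals. With library totals alone the counts were 6 higher and 1 lower (50 nM), 5 and 17 (100 nM) and 1 and 26 (200 nM). Of all genes under that scaling, 13.3% were higher and 23.1% lower at 50 nM. These shares were 24.3% and 45.8% at 100 nM, and 28% and 53.5% at 200 nM. The 6 lower at 100 nM became 3 without replicate 1 at 0 nM or without replicate 2 at 100 nM.

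Of 24 G2/M genes, the mitotic genes under the MuvB complex, 20 were higher and 1 lower at 50 nM (18.8% and 14.7% of all genes), and 22 and 1 at 75 nM (29% and 26.9%). The count was 20 against 1 with 100 nM (34.1% and 32.5% of all genes), 19 against 2 with 150 nM (37.7% and 36.6%) and 16 against 6 with 200 nM (40.5% and 39.5%). Their median at 200 nM was 0.44. Nusap1, a spindle protein, was at 90.2 and 82.3 CPM at 0 nM and 395 and 402 CPM at 200 nM (2.21 ± 0.05, edgeR, adjusted p = 7.65e-39). Ube2c, the ubiquitin-conjugating enzyme of mitotic exit, rose by 1.35 ± 0.03, the proliferation marker Mki67 by 1.18 ± 0.04 and Ccnb2, a mitotic cyclin, by 1.17 ± 0.04. The 200 nM count was 12 higher and 10 lower with library totals alone, and that at 50 nM 17 and 1. Of all genes under that scaling, 28% were higher and 53.5% lower at 200 nM, and 13.3% and 23.1% at 50 nM.

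**Figure D5:**
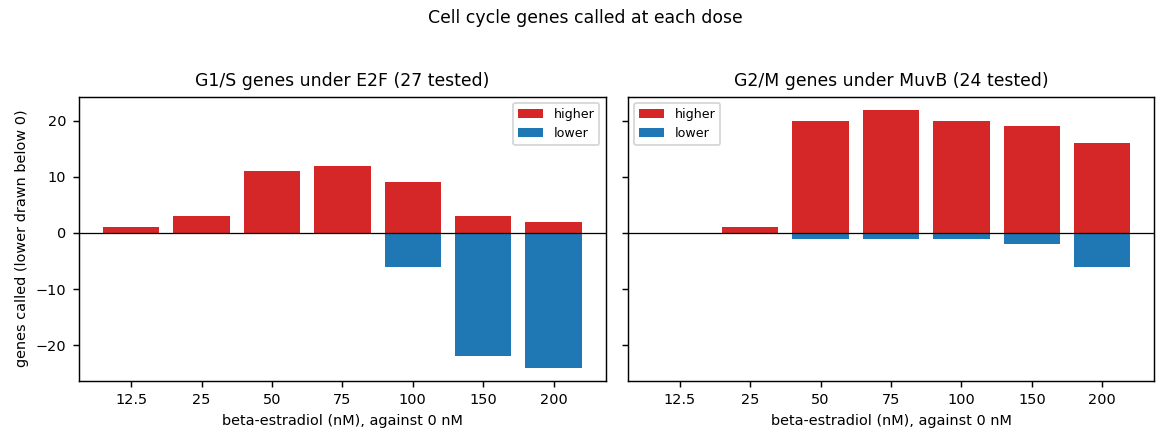
Number of G1/S genes (left, 27 tested) and G2/M genes (right, 24 tested) called higher (above 0) or lower (drawn below 0) than at 0 nM in edgeR, by dose in nM. The G1/S genes go from 12 higher and none lower at 75 nM to 2 higher and 24 lower at 200 nM, while 16 G2/M genes are still higher at 200 nM.

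The patterns most like each member were sought by Pearson's r of log2 CPM over the 16 libraries, among the 5988 or 5989 other genes whose mean was 20 CPM or more. These r values describe genes that share the same libraries and dose order, where most genes moved, and carry no test. Rb1 was most like March2 (0.995) and Smap1 (0.993), Rbl2 most like Mvp (0.992) and Psme1 (0.989), and E2f3 most like Tuba1b (0.989) and Uqcc (0.988). E2f2 was most like Top2a, the mitotic topoisomerase (0.984), and E2f7 most like the condensin genes Ncapg (0.921) and Ncapg2 (0.918). E2f8 was most like Rrm1, a subunit of ribonucleotide reductase (0.966), and Rbm3 (0.964), and Rbl1 most like Tdp2 (0.971) and Rabl6 (0.970). E2f4 was most like Acsl3 (0.976) and Xpo1 (0.974), while the low-count genes E2f1 (Pkmyt1, 0.853, and Cks2, 0.820) and E2f6 (Zmym1, 0.866, and Uba3, 0.863) had weaker best matches. Within the family, Rb1 and Rbl2 had r = 0.924, E2f3 and E2f4 0.907, E2f8 and Rbl1 0.905, E2f2 and Rbl1 0.900, and E2f3 and Rbl2 -0.923.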

How the data were processed

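RNA-seq gene counts, whole numbers per gene symbol and library, are used as the authors deposited them. The tools named per the submitters' processing notes are STAR and bcl2fastq, with mm10 as build. The sources used here name no counting program and no strand setting. Per the labels, the method was Smart-seq2, so no molecular identifiers were counted. From the deposited counts, edgeR 4.0.16 in R 4.3.3 was run on all 16 libraries: genes kept by its filter by dose (10080), TMM scaling, dose as a factor, robust quasi-likelihood tests, and Benjamini-Hochberg adjustment over all genes tested at 0.05. Standard errors are the fold change over the root of F. CPM used TMM-scaled totals, and log2 CPM a prior count of 2. Exon lengths and positions came from GENCODE on GRCm38, and promoter windows from RefSeq on GRCm38.p6.

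The script was tested on simulated counts with known changes. Named genes were all 10 members, up to 4 per gene list with the smallest adjusted p at 200 nM, and 2 like genes per member, of which some items are not reported here. The members and lists were chosen with earlier results of these data known. Comparisons with 0 nM share the same 2 control libraries. Alternatives were DESeq2 1.42.0, library totals alone, TMM without Rn45s and globin genes, no filter, a replicate block, 0 and 200 nM alone, and leaving out each library. Sample groups and doses came from the labels.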

Additional observations from a re-analysis of the deposited data

How the results depend on the processing

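With 2 libraries a dose, some calls depended on 1 library or on scaling. Among them were Rbl1 from 50 to 75 nM (0.55), lost without replicate 1 at 75 nM, and from 150 to 200 nM (-0.55). Of the alternatives' values, 273 counts of members lay within 1.5 times the reported count and 29 did not, and 90 fold changes at 200 nM kept direction and call, 3 reversed, 3 gained a call and 4 lost it. Of the counts over gene lists, 235 stayed within 1.5 times and 17 did not. Such comparisons of counts do not track which genes were called. The causes were not tested, except that library totals alone shift all genes by -0.38 at 200 nM.

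With library totals alone, E2f8 at 200 nM against 0 nM reversed to -0.18, members lower at 100 nM were 3, those at 200 nM were 3 higher and 6 lower, 1 was lower from 50 to 75 nM and 1 higher from 150 to 200 nM. G1/S genes were then 6 higher and 1 lower at 50 nM, 5 higher and 17 lower at 100 nM and 1 higher at 200 nM, and G2/M genes lower were 3 at 100 nM and 10 at 200 nM. Of all genes under that scaling, 13.3% were higher and 23.1% lower at 50 nM. These shares were 24.3% and 45.8% at 100 nM, and 28% and 53.5% at 200 nM. TMM without Rn45s and globin genes gave 3 members lower at 100 nM, and no filter gave 2 lower at 25 nM. DESeq2 gave 0 lower at 25 nM, 0 lower at 50 nM and 1 higher from 150 to 200 nM.

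Leaving out each library in turn gave E2f1 at 200 nM against 0 nM from -0.19 to 0.014 (the latter without replicate 2 at 0 nM) and E2f7 from -0.312 to 0.049 (the latter without replicate 1 at 200 nM). Members higher ranged from 3 to 4 at 50 nM, from 3 to 4 for 50 to 75 nM, from 1 to 2 for 75 to 100 nM and from 1 to 2 for 150 to 200 nM. Members lower ranged from 0 to 1 at 25 nM, from 0 to 1 at 50 nM, from 1 to 2 at 75 nM, from 1 to 2 at 100 nM and from 0 to 1 for 50 to 75 nM. G1/S genes lower at 100 nM ranged from 3 to 7, and G2/M genes lower at 50 nM from 0 to 1.

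Differences between replicate 1 and replicate 2, over all genes tested, had correlations of -0.058 to 0.096 over 28 pairs of doses. Count noise pulls such values towards 0, so they do not settle whether same-numbered libraries belong together. A replicate block moved no count of members by over 1.5 times and changed 1 call, Rbl1 from 25 to 50 nM (adjusted p = 0.0651 in edgeR). Fitting 0 and 200 nM alone was run for 200 nM against 0 nM.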
